A study of Mus musculus with 6 samples.

Results

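The genes described here encode the mammalian respiratory chain: the subunits of complexes I to V, cytochrome c and the factors named with complex I that help to build it. They were taken from the deposited table of counts as the protein-coding genes whose symbols begin with Ndufa, Ndufb, Ndufc, Ndufs or Ndufv, Uqcr, Cox4 to Cox8, Atp5 or mt-, together with Sdha to Sdhd, Cyc1 and Cycs. This rule gave 111 of the 55487 genes in the table, 98 in the nuclear and 13 in the mitochondrial genome, and used no measured value. RNA was sequenced from alphaTC1 cells, a mouse glucagonoma line and so a tumour model of the pancreatic alpha cell, not a primary islet cell. The cells had been treated with G786-1089 or with the solvent DMSO, with 3 libraries in each group, here called A, B and C after the columns of the table. G786-1089 is taken to be the inhibitor of the Tudor domain of the splicing factor SMNDC1 that the study describes; its dose and duration are not given in the labels. All 6 libraries shared the line, its wild-type label and the Smart-seq2 protocol, which amplifies cDNA from small amounts of RNA.

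In mammals, electrons from NADH enter the chain at complex I and those from succinate at complex II, pass through ubiquinone to complex III, move on cytochrome c to complex IV and reduce oxygen there. Complexes I, III and IV pump protons, and complex V, the ATP synthase, lets them flow back to make ATP. Each complex except II joins products of both genomes, so that its subunits come from separate transcription systems. In beta cells of the islet, ATP from the chain couples nutrients to hormone release.

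Library totals ran from 59070705 to 94747943 counts, and each G786-1089 library was deeper than each DMSO library. Values are given as counts scaled to library size (CPM) after TMM normalization, whose factors were 1.06 to 1.1 with G786-1089 and 0.921 to 0.938 with DMSO. A gene was called higher or lower at an adjusted p under 0.05, from the quasi-likelihood F-test of edgeR and the Benjamini-Hochberg method across the 15082 genes tested, and fold changes are those of G786-1089 over DMSO, with their standard error (SE). For its cell culture work the study states that a single batch of cells was divided at random among treatments in every replicate, and that the samples of a replicate were handled together. The p-values thus measure the spread between such divisions of 1 line, which may be technical. Of 7 alpha cell markers, Gcg, Irx2 and Pcsk2 were called lower with G786-1089, and the summed level of the list was 4280 to 4980 CPM against 22600 to 25200 CPM. The 6 beta cell markers summed to at most 15.4 CPM with Ins1 and Pdx1 at 0. The part of this change in alpha cell transcripts in the results below was not tested. The transcript of the target, Smndc1, was scarce, at 4.15, 1.22 and 6.03 CPM with G786-1089 and 2.78, 1.71 and 1.88 CPM with DMSO. It was not called (log2 fold change 0.84 ± 0.67 SE, edgeR adjusted p = 0.481), and so few counts leave its change uncertain.

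Of the 105 respiratory chain genes that passed the filter on low counts, 60 were called lower and 7 higher with G786-1089. Over all tested genes 7.8% were called lower and 6.98% higher, and among the 4453 genes whose average log2 CPM was 5 or more, where most of these genes lie, 20.8% were lower and 13.6% higher. Of 92 tested nuclear genes 59 were lower and 4 higher (median log2 fold change -0.48), and of the 13 mitochondrially encoded genes 3 were higher and 1 lower. The median of all tested genes was 0.04. In bulk RNA, fewer cells of a type and less RNA per cell cannot be told apart. Scaling by library size alone moved the median of all genes up by 0.21 and left 38 of these genes lower and 11 higher, where it called 5.28% and 10.8% of all tested genes. DESeq2 gave 64 lower and 11 higher, against 12.0% and 12.3% of all tested genes. With a replicate block by library letter, 17 of the 67 calls were lost, at adjusted p = 0.0506 to 0.0912 in edgeR: Ndufa1, Ndufa6, Ndufa9, Ndufb4, Ndufb5, Ndufs8, Ndufv2, Ndufaf3, Ndufaf8, Cyc1, Cox5b, Cox7a1, Cox7b2, Cox7c, Cox8a, Atp5c1 and Atp5pb. The 6 members that were not tested had few counts or none: Cox8b, Cox8c and a second entry named Atp5o were at 0 in every library, Ndufa4l2 had 2, 0 and 6 counts with G786-1089 and 0, 4 and 8 with DMSO, and Cox4i2 and Cox6b2 had 9 and 74 counts, all in DMSO library A.

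**Figure D1:**
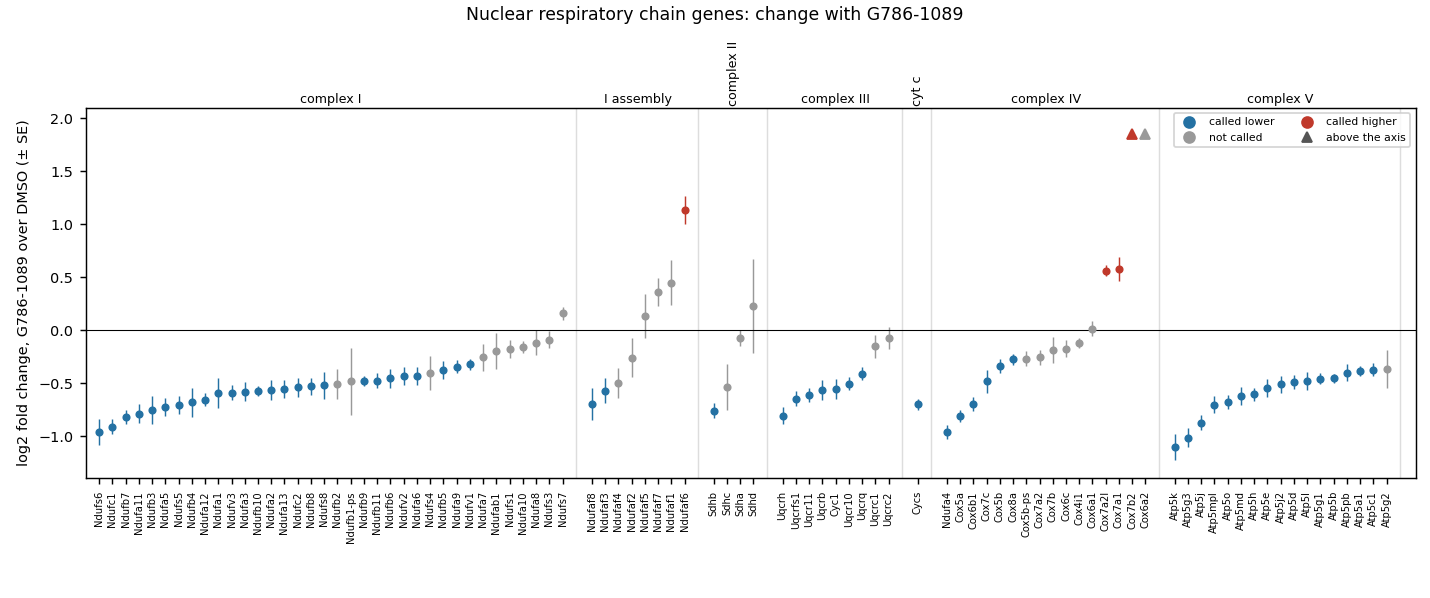
Log2 fold change of 91 of the 92 tested nuclear genes, G786-1089 over DMSO, with its standard error as a bar, grouped by complex and ordered within each group. Blue points are genes called lower, red points genes called higher and grey points genes not called, and triangles at the upper edge are Cox7b2 and Cox6a2, whose values of 3.5 and 3.59 lie above the axis. All 17 points of complex V lie below 0, while complex IV runs from -0.96 to values above the axis.

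Complex V had 16 of 17 tested genes lower, complex III 7 of 9 and complex I 26 of 37. Complex II, with 1 of 4, complex IV, with 6 of 16, and the assembly factors of complex I, with 2 of 8, followed, as the plot of fold changes by complex shows. Complex IV here, also in its sum, includes Cox5b-ps, a near copy of Cox5b that is annotated as protein-coding. Summed over its nuclear genes, complex V stood at 0.713 ± 0.0171 of its DMSO level, complex I at 0.731 ± 0.0173, complex III at 0.740 ± 0.0502, complex II at 0.792 ± 0.0414 and complex IV at 0.840 ± 0.0268 (SD, n = 3 each). These ratios are a description, without a test. For complex IV, the ratio was 0.969 and the libraries overlapped when scaled by library size alone.

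**Figure D2:**
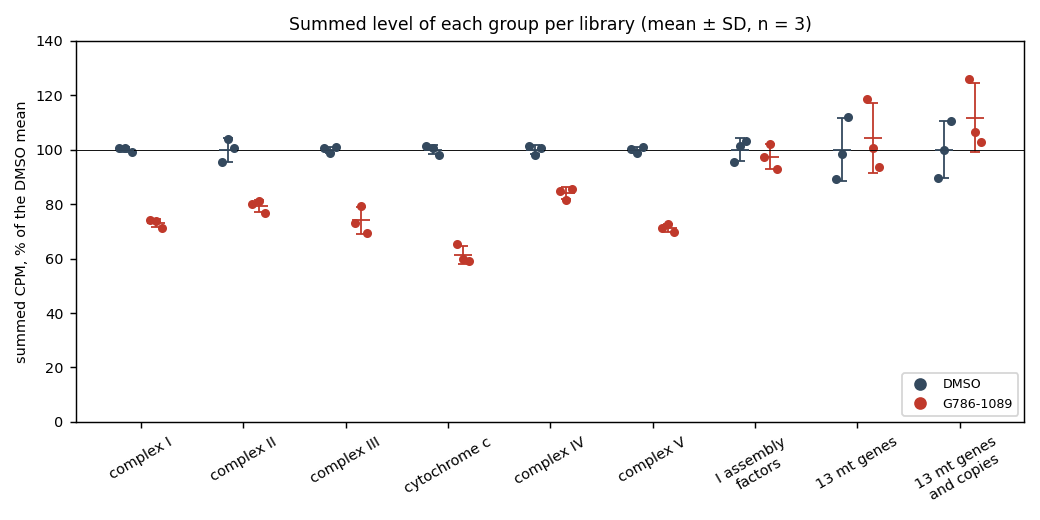
Summed CPM of each group of genes in each library, as a percentage of its DMSO mean; points are libraries, and bars are the mean and SD of the 3 libraries of a group. The G786-1089 libraries lie below the DMSO libraries in complexes I to V and for cytochrome c, whose ratio was 0.615, and overlap them for the complex I assembly factors and for the 13 mitochondrially encoded (mt) genes.

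Since 59 of the 92 tested nuclear genes were lower, the promoters of the nuclear genes were read for 3 short motifs long known upstream of respiratory genes: that of the nuclear respiratory factor NRF1, that of ETS factors such as the GA-binding protein, and that of YY1. RefSeq promoters on GRCm38.p6 were matched by Ensembl identifier, or else by symbol, for 78 of the 98 nuclear genes. Both entries named Atp5o were matched, with the same motif position, and are counted separately. Both strands were searched for GCGCANGCG (NRF1), CCGGAAG (ETS) and AAGATGGCG (YY1), of which the ETS and YY1 letters can share the letters AAG. The NRF1 letters were found in 29.5% of these promoters and in 6.47% of all 27025 promoters of the same length, the ETS letters in 23.1% and 9.12%, and the YY1 letters in 8.97% and 1.49%. At least one motif was present in 27 of 52 promoters of genes called lower (51.9%) and in 12 of 23 of genes tested and not called lower (52.2%). By motif, these shares were 26.9% and 34.8% for NRF1, 26.9% and 17.4% for ETS, and 9.62% and 8.7% for YY1. The differences between the shares were not tested. The promoters below are shown for 4 genes that were lower, 1 with each motif and 1 with none, and for Cox7a2l, which was higher. Each runs 5′ to 3′ on the strand of its gene, with the motif in capitals. In Cycs the NRF1 letters, on the reverse strand, begin at position -61 from the RefSeq start site, in Ndufb7 the ETS letters begin at -20, and in Ndufc1 the YY1 letters begin at 22. That start site lies 31 bases before the gene as deposited for Cycs, but 87 bases inside it for Ndufb7, so that the ETS letters lie within the deposited gene, and 33, 47 and 2997 bases inside it for Ndufc1, Ndufa4 and Cox7a2l.
Cycs, chr6:50566520-50566819, minus strand: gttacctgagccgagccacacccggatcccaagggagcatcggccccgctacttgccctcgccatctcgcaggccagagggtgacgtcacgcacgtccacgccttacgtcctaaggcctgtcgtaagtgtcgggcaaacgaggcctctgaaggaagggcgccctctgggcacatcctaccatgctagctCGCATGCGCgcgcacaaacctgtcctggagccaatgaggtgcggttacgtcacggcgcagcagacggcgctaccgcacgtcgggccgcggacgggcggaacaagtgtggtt
Ndufb7, chr8:83566508-83566807, plus strand: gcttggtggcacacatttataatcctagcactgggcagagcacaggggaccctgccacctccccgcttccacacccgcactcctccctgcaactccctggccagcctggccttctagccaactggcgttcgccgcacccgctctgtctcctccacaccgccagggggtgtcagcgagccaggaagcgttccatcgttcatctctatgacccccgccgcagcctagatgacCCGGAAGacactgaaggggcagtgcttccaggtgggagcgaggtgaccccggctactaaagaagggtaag
Ndufc1, chr3:51408906-51409205, minus strand: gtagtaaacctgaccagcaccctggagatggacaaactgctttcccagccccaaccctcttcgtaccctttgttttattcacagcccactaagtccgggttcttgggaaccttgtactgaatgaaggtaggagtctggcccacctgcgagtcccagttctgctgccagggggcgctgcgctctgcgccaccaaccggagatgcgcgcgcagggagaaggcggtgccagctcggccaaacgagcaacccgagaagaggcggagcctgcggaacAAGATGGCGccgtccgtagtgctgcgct
Ndufa4, chr6:11907401-11907700, minus strand: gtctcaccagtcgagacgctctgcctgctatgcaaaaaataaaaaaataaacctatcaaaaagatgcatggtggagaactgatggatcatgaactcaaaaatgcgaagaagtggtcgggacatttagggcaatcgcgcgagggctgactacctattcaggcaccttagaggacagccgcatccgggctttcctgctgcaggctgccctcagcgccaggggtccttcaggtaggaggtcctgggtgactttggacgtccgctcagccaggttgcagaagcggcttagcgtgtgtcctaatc
Cox7a2l, chr17:83514284-83514583, minus strand: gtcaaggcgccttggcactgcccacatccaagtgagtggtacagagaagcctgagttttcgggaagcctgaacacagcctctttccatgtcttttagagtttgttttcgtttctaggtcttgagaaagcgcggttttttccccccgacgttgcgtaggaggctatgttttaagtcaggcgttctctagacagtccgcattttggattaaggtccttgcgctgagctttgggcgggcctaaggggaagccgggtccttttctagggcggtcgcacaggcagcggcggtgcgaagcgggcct

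Complex I, the NADH dehydrogenase, has a catalytic core conserved from bacteria, of which 7 subunits are nuclear and 7 mitochondrially encoded, and a shell of accessory subunits. Most of the called genes were accessory: 23 of 30 were lower (median log2 fold change -0.55), against 3 of the 7 nuclear core genes, with a median of -0.18. With offsets for gene length these medians were -0.41 and -0.27, and the difference between accessory and core genes was not tested. Ndufs6, a zinc-binding accessory subunit, had 310.0, 328 and 246 CPM with G786-1089 and 628, 536 and 557 CPM with DMSO. Ndufc1, an accessory subunit of the membrane arm, had 464, 402 and 446 CPM against 820, 829 and 822 CPM, and Ndufb7, at the intermembrane face of that arm, had 444, 464 and 499 CPM against 833, 856 and 798 CPM. In all 3 genes every G786-1089 library was below every DMSO library, and their levels fell by 48.6%, 46.9% and 43.4%. Over all tested genes, the groups did not overlap in CPM, in either direction, for 36.7%. Each statement below that the groups are apart stands beside this share. The log2 fold changes were -0.96 for Ndufs6 (SE 0.13, edgeR adjusted p = 0.00441), -0.91 for Ndufc1 (0.07, adjusted p = 0.000642) and -0.82 for Ndufb7 (0.07, adjusted p = 0.000833).

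Ndufb10 was the accessory gene with the highest CPM, and its libraries were close together within each group: the mean was 1179 ± 26.9 CPM with G786-1089 and 1754 ± 16.5 CPM with DMSO (SD, n = 3 each). It fell by 32.8% (log2 fold change -0.57 ± 0.05 SE, edgeR adjusted p = 0.000669). Ndufa12, an accessory subunit of the arm that reaches into the matrix, fell by 36.6%, with 43.9% as many counts on its pseudogene Ndufa12-ps, which matched it at 99.5% of 402 bases. Also lower among the accessory genes were Ndufa1, Ndufa2, Ndufa3, Ndufa5, Ndufa6, Ndufa9, Ndufa11, Ndufa13, Ndufb3, Ndufb4, Ndufb5, Ndufb6, Ndufb8, Ndufb9, Ndufb11, Ndufc2, Ndufs5 and Ndufv3. Their log2 fold changes ranged from -0.79 for Ndufa11 to -0.35 for Ndufa9. Several of these calls did not hold: Ndufa1, Ndufb4 and Ndufb5 were called in 1 and Ndufa6 in 2 of the 6 fits without 1 library, and Ndufa1, Ndufa2, Ndufa3, Ndufa6, Ndufb5 and Ndufb6 lost the call with offsets for gene length. All 30 accessory genes had a negative fold change, except that Ndufa8, which was not called, turned positive with offsets for gene length and 3 genes did so when scaled by library size alone.

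The nuclear core genes were less uniform. Ndufv1, which binds NADH and FMN, fell from 1371 ± 27.8 to 1095 ± 39.2 CPM (SD, n = 3 each; log2 fold change -0.32, SE 0.05, edgeR adjusted p = 0.00857). Ndufv2 and Ndufs8, which hold iron-sulfur clusters, fell by 0.44 and 0.52 on the log2 scale, but Ndufs8 remained called in 1 and Ndufv2 in 2 of the 6 fits that left out 1 library. The fold changes of Ndufs1, Ndufs3 and Ndufs7 were -0.18, -0.09 and 0.16, and none of these 3 was called, although Ndufs7 was called higher with offsets for gene length, with DESeq2 and when scaled by library size alone.

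Of the 8 assembly factors of complex I in the group, Ndufaf6 stood apart. It encodes a protein needed early in the building of the arm that holds the mitochondrially encoded subunits, and had 86.8, 96.5 and 89.9 CPM with G786-1089 against 42.3, 44.8 and 37.2 CPM with DMSO. Every treated library was thus above every control. The change was 1.14 on the log2 scale (SE 0.13, edgeR adjusted p = 0.00272). Ndufaf8 and Ndufaf3 were lower by 0.70 and 0.57 on the log2 scale (edgeR adjusted p = 0.026 and 0.021), and kept the call in 2 and 1 of the 6 fits without 1 library. Ndufaf4 had a log2 fold change of -0.50 and Ndufaf7, the factor with the highest CPM with G786-1089, of 0.36, and neither was called (edgeR adjusted p = 0.0602 and 0.124). Ndufaf4 was called lower with offsets for gene length or GC content and with DESeq2, and Ndufaf7 higher with DESeq2 and when scaled by library size alone. Among 7 further assembly factors of complex I outside the naming rule, Tmem186 fell from 76.0 to 41.1 CPM.

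Complex II, the succinate dehydrogenase, is the complex without mitochondrially encoded subunits. Sdhb, its iron-sulfur subunit, had 323, 328 and 296 CPM with G786-1089 and 526, 525 and 554 CPM with DMSO. It fell by 41.0% (log2 fold change -0.76 ± 0.07 SE, edgeR adjusted p = 0.00122). Sdha, the flavoprotein and partner of Sdhb in the catalytic head, overlapped between groups at 680, 700 and 649 CPM against 657, 774 and 702 CPM (log2 fold change -0.07 ± 0.08 SE, edgeR adjusted p = 0.613). For the membrane anchors, Sdhc had a log2 fold change of -0.54 (SE 0.22) and Sdhd, at under 10 CPM in every library, of 0.23 (SE 0.45), and neither was called.

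In complex III, which passes electrons from ubiquinol to cytochrome c, the genes split by role. The redox subunits Cyc1 (cytochrome c1) and Uqcrfs1 (the Rieske iron-sulfur protein) were both lower, as were all 5 small subunits Uqcrh, Uqcrb, Uqcrq, Uqcr10 and Uqcr11. Uqcrh, the hinge protein at the docking site of cytochrome c, had 320, 316 and 278 CPM with G786-1089 and 534, 542 and 524 CPM with DMSO, a fall of 0.81 on the log2 scale (SE 0.08, edgeR adjusted p = 0.00139). Uqcrfs1 fell from 1218 ± 81.3 to 778 ± 38.9 CPM, Uqcr11 from 887 ± 16.8 to 579 ± 39.4 CPM and Uqcr10, the one with the highest CPM of the 7, from 1982 ± 74.1 to 1393 ± 86.5 CPM (SD, n = 3 each). The large core proteins, which face the matrix and take no part in electron transfer, were not called: Uqcrc1 had 2008, 2527 and 1956 CPM against 2242, 2463 and 2519 CPM, and its log2 fold change of -0.15 (SE 0.11) became positive when scaled by library size alone, as did that of Uqcrc2, at -0.07. Whether the core proteins differed from the other subunits was not tested.

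Cytochrome c, the mobile carrier encoded by Cycs on chromosome 6, had 1537, 1412 and 1394 CPM with G786-1089 and 2386, 2366 and 2314 CPM with DMSO. The groups were far apart relative to their spread, and the level fell by 38.5% (log2 fold change -0.70 ± 0.05 SE, edgeR adjusted p = 0.000568). Near-identical sequence in Gm10053 (99.9% over 946 bases) held 27.0% as many counts as Cycs, and that in Gm10108 (99.4% over 319 bases) 8.6%. Reads could thus be split between Cycs and these copies.

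Complex IV, cytochrome c oxidase, had called genes in both directions. Ndufa4, first assigned to complex I and now known as a complex IV subunit, had 499, 463 and 444 CPM with G786-1089 and 928, 884 and 934 CPM with DMSO, and fell by 48.8% (log2 fold change -0.96 ± 0.07 SE, edgeR adjusted p = 0.000432). Cox5a, a matrix subunit, had 599, 546 and 563 CPM against 1002, 1002 and 994 CPM, and fell by 43.1% (log2 fold change -0.81 ± 0.06 SE, edgeR adjusted p = 0.000501). Cox6b1, on the intermembrane face, fell by 38.3% and Cox5b, Cox7c and Cox8a by 21.1%, 28.5% and 17.4%. The calls of these last 3 were lost when offsets for gene length were added to the fit. Cox5b-ps matched Cox5b at 99.2% over 390 bases and held 19.9% as many counts, so reads could be split between them. It was not called itself (log2 fold change -0.27 ± 0.07 SE, edgeR adjusted p = 0.0509). Cox4i1, the partner of Cox5a in the early assembly of the complex, had 4166, 4096 and 4513 CPM against 4723, 4464 and 4699 CPM and was not called (log2 fold change -0.12 ± 0.05 SE, edgeR adjusted p = 0.17). Within a library, the counts of Cox4i1 were 7.49 ± 0.531 times those of Cox5a with G786-1089 and 4.63 ± 0.155 times with DMSO (SD, n = 3 each), a ratio that does not depend on normalization between libraries.

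The 3 higher nuclear genes of complex IV all encode forms of its small subunits VIIa and VIIb. Cox7a2l, also called Scaf1 or Cox7rp and known for joining complexes III and IV in a supercomplex, had 923, 919 and 928 CPM with G786-1089 against 647, 613 and 618 CPM with DMSO. The treated libraries differed from each other by less than 10 CPM and lay above all controls, and the gene rose by 0.56 on the log2 scale (SE 0.05, edgeR adjusted p = 0.00129). Its pseudogene Gm6969 held 16.3% as many counts over 201 identical bases. Cox7a1, the form typical of heart and skeletal muscle, had 208, 192 and 224 CPM against 149, 147 and 123 CPM (log2 fold change 0.57 ± 0.11 SE, edgeR adjusted p = 0.0187), but was called in 1 of the 6 fits without 1 library. Cox7a2, the form found in most tissues, had 352, 371 and 357 CPM against 440.0, 404 and 446 CPM (log2 fold change -0.26, edgeR adjusted p = 0.0576), and was called lower with DESeq2 and with offsets for GC content. On the scale of FPKM, which divides by gene length, Cox7a2l made up 46.3% ± 0.466 of the 3 genes with G786-1089 and 37.4% ± 0.141 with DMSO, Cox7a2 31.4% ± 1.1 and 44.7% ± 1.88, and Cox7a1 22.3% ± 1.41 and 17.9% ± 1.75 (SD, n = 3 each). Cox7a2 was thus the most abundant of the 3 in every DMSO library and Cox7a2l in every treated library.

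Other alternative forms in complex IV were scarce. Cox7b2, known from testis, had 107, 94 and 58 counts with G786-1089 and 4, 8 and 4 with DMSO, at most 1.43 CPM in any library. It was called higher (log2 fold change 3.5 ± 0.72 SE, edgeR adjusted p = 0.0222), but in none of the 6 fits without 1 library. Cox6a2, the muscle form of subunit VIa, had 4.45, 5.9 and 2.65 CPM against 0.888, 0.185 and 0 CPM and was not called (edgeR adjusted p = 0.167), although DESeq2 and limma-trend on FPKM called it higher. Their common counterparts were present at far higher levels, with means of 217 and 469 CPM with G786-1089: Cox7b had a log2 fold change of -0.19 and Cox6a1 of 0.01, and neither was called. Cox6a1 made up 99.2% of the FPKM of its pair with G786-1089 and Cox7b also 99.2%.

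**Figure D3:**
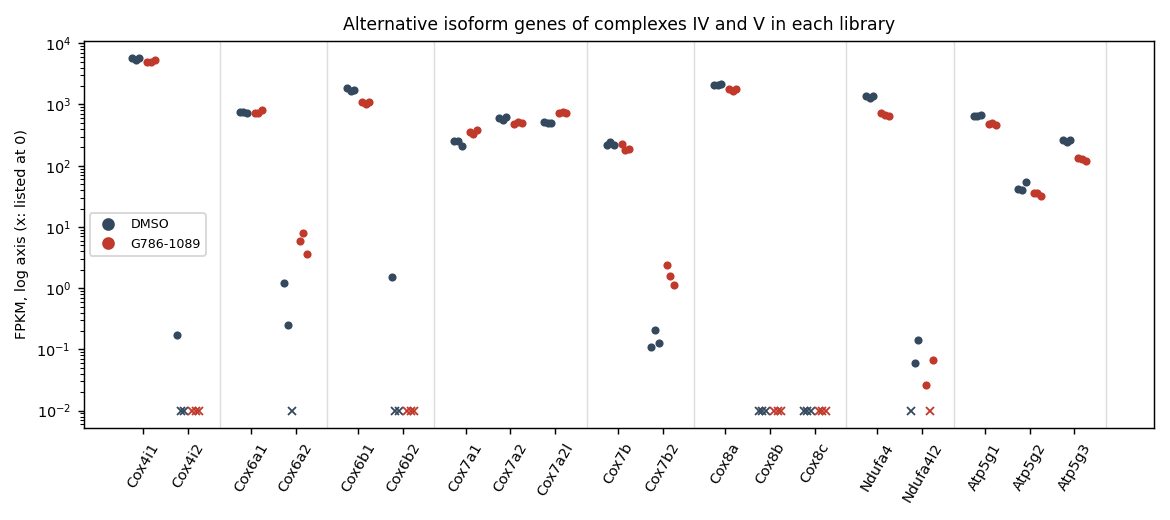
FPKM of the genes with alternative forms in complexes IV and V in each library, on a log axis; dark points are DMSO and red points G786-1089 libraries, and crosses at the lower edge are libraries listed at 0. Cox7a1, Cox7a2l, Cox6a2 and Cox7b2 lie higher in all 3 treated libraries, and Cox6b1, Cox7a2, Cox8a, Ndufa4, Atp5g1, Atp5g2 and Atp5g3 lower. Of these, Cox6a2, Cox7a2 and Atp5g2 were not called. The rare forms Cox4i2, Cox6b2, Cox8b, Cox8c and Ndufa4l2 are at or near 0.

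The ATP synthase, complex V, is a rotary enzyme with a catalytic F1 head in the matrix and a motor in the membrane. All 5 genes of the F1 head were lower: Atp5a1 and Atp5b, whose products bind the nucleotides, fell by 23.6% and 27.1%, and Atp5c1, Atp5d and Atp5e, of the central stalk, by 22.8%, 28.7% and 31.6%. Atp5b had 2775, 2758 and 2664 CPM with G786-1089 and 3763, 3640 and 3841 CPM with DMSO (log2 fold change -0.46 ± 0.04 SE, edgeR adjusted p = 0.00106). The 4 genes of the peripheral stalk, Atp5o, Atp5h, Atp5j and Atp5pb, were lower as well. Atp5j, coupling factor 6, had 510.0, 507 and 444 CPM against 892, 886 and 898 CPM and fell by 45.4% (log2 fold change -0.87 ± 0.07 SE, edgeR adjusted p = 0.000799). Exons of Atp5o share 47.9% of their bases with other genes.

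Small subunits of the membrane part were lower too. Atp5k, subunit e, which takes part in the pairing of ATP synthases, had 192, 179 and 237 CPM with G786-1089 and 454, 447 and 408 CPM with DMSO. It fell by 53.6% (log2 fold change -1.11 ± 0.12 SE, edgeR adjusted p = 0.00219), the largest fall among the tested members. Atp5j2, Atp5l, Atp5md and Atp5mpl, of the same membrane part, fell by 0.51, 0.48, 0.62 and 0.70 on the log2 scale. The proton-carrying c ring is made from 3 genes that encode the same mature protein with different import signals. Atp5g3 had 106, 99.4 and 95.1 CPM against 209, 196 and 204 CPM and fell by 50.6% (log2 fold change -1.02 ± 0.09 SE, edgeR adjusted p = 0.00106), Atp5g1 fell by 27.2%, and Atp5g2, the gene of complex V that was not called, had a log2 fold change of -0.37 (SE 0.18, edgeR adjusted p = 0.236). Atp5g1 made up 74.8% ± 1.09 of their summed FPKM with G786-1089 and 68.6% ± 0.386 with DMSO, and Atp5g3 19.8% ± 1.0 and 26.8% ± 0.774 (SD, n = 3 each). These shares rest on lengths of 4912 bases for Atp5g1, 731 for Atp5g2 and 724 for Atp5g3. Reads could also be split with near copies: Gm10039 held 12.3% as many counts as Atp5g1 and Gm10175 54.9% as many as Atp5g2.

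The 13 mitochondrially encoded genes are transcribed as long precursors from both strands of the mitochondrial chromosome and cut apart, so their levels also depend on processing and turnover of each mRNA. Before their values are read, their nuclear copies have to be considered: a fragment of mitochondrial DNA on chromosome 1 and others elsewhere are annotated as pseudogenes in the same table. The sequences below show why the counts of some genes cannot be assigned. Bases 61 to 180 of mt-Co2 are identical in Gm28661, which matched mt-Co2 at 681 of 681 bases. Bases 1054 to 1173 of mt-Co1 are shown beside Gm29216, which begins there and matched at 486 of 492 bases, with all 6 differences in this window, and beside Gm13340, which matched at 1508 of 1545 bases. Capitals mark bases at which a copy and mt-Co1 differ, in mt-Co1 those that differ from either copy. Coordinates are on GRCm38.
mt-Co2, chrM:7073-7192, plus strand: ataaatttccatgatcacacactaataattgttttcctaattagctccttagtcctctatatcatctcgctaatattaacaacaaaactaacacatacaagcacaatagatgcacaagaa
Gm28661, chr1:24615386-24615505, minus strand: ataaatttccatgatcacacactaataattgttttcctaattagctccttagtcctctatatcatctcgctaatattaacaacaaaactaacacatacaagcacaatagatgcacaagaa
mt-Co1, chrM:6381-6500, plus strand: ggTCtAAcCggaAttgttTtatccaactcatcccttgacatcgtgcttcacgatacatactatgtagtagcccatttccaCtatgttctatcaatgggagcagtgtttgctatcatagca
Gm29216, chr1:24616078-24616197, minus strand: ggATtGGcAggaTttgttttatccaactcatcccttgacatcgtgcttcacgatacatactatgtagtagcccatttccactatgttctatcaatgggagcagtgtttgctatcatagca
Gm13340, chr2:22588475-22588594, minus strand: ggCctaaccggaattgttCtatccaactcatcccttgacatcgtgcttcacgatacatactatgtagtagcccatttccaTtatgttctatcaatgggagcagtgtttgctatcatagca

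Summed over the 6 libraries, the copies held 99.8% of the counts of mt-Atp6 and its copy Gm10925, 99.7% of those of mt-Co3 and Gm28437, 99.6% of those of mt-Co2 and its copies, 42.9% for mt-Co1 and 42.6% for mt-Nd3. For mt-Nd1, mt-Nd6, mt-Cytb and mt-Atp8 no annotated copy of at least 100 bases was found, and for mt-Nd2, mt-Nd4, mt-Nd4l and mt-Nd5 the copies held less than 1% each. Only annotated genes were searched. On the mitochondrial chromosome mt-Atp8 starts between mt-Co2 and mt-Atp6, and the unannotated sequence between their chromosome 1 copies Gm28661 and Gm10925 was not searched. Whether reads of mt-Atp8 were lost to it was not tested. The second kind of value below adds the counts of the copies to the gene, an alternative chosen after seeing the data.

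Between mitochondrial genes the direction differed. mt-Co1, the catalytic subunit of complex IV, had 10240, 8647 and 8037 CPM with G786-1089 and 2861, 3148 and 3524 CPM with DMSO, a log2 fold change of 1.5 (SE 0.11, edgeR adjusted p = 0.000527). With its copies it had 17920, 15220 and 14790 CPM against 4747, 5188 and 5688 CPM, a log2 fold change of 1.62 (SE 0.09, edgeR adjusted p = 0.00024). Each treated library was thus above each control in either count. mt-Nd1, the core subunit of complex I at its quinone site, had 8553, 7246 and 6594 CPM against 11830, 12660 and 15010 CPM, and fell by 0.82 on the log2 scale (SE 0.12, edgeR adjusted p = 0.00657). Since both genes were counted in the same libraries, their ratio is free of normalization: the counts of mt-Co1 over those of mt-Nd1 were 1.2, 1.19 and 1.22 with G786-1089 and 0.242, 0.249 and 0.235 with DMSO. The ratio hardly varied within a group, also where the levels of the single genes did.

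Further along the chromosome, mt-Nd5 and mt-Nd6, core subunits of the proton-pumping arm of complex I, were higher. mt-Nd5 had 1058, 916 and 910 CPM with G786-1089 and 504, 615 and 625 CPM with DMSO (log2 fold change 0.73 ± 0.11 SE, edgeR adjusted p = 0.00681), and mt-Nd6 had 205, 152 and 192 CPM against 76.9, 87.8 and 89.1 CPM (1.11 ± 0.14 SE, edgeR adjusted p = 0.004). mt-Nd6 lies from 13552 to 14070 on the minus strand, alone among the 13 genes, and its end overlaps that of mt-Nd5. Because counting ignored strand, RNA of mt-Nd6 and RNA of the opposite strand cannot be told apart anywhere along mt-Nd6. mt-Nd4 had 2104, 1781 and 1677 CPM against 1191, 1421 and 1506 CPM, so that the groups did not overlap, as was so for 36.7% of all tested genes, but its log2 fold change of 0.43 was just outside the threshold (SE 0.12, edgeR adjusted p = 0.052). It was called higher with offsets for gene length, with DESeq2 and when scaled by library size alone, but offsets for GC content lowered its log2 fold change to 0.13 (edgeR adjusted p = 0.415) and the replicate block gave an edgeR adjusted p of 0.142.

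The other mitochondrial genes were not called. mt-Cytb, of complex III, overlapped at 4334, 3796 and 3559 CPM against 3513, 3973 and 4331 CPM (log2 fold change -0.02, SE 0.10), and the counts of mt-Nd5 over those of mt-Cytb were 0.247 ± 0.00756 with G786-1089 and 0.147 ± 0.00643 with DMSO (SD, n = 3 each). mt-Nd2 and mt-Nd4l, at 592 and 197 CPM with G786-1089 and 592 and 194 CPM with DMSO, differed by less than the spread between libraries. The log2 fold change of mt-Nd3 was -0.57 (SE 0.24) alone and -0.55 (0.22) with its copy, and with offsets for GC content it was -0.91 and called lower (edgeR adjusted p = 0.0399). For mt-Atp6 and mt-Co3 it was -0.18 and -0.21 alone and -0.21 and -0.16 with their copies, which raised them from 17.7 and 10.3 to 9498 and 3344 CPM with DMSO. mt-Atp8 stayed below 2.2 CPM in every library, with a log2 fold change of -0.22 (SE 0.50). mt-Co2, at about 1 CPM alone, was not called, whereas with its copies it had 270, 256 and 243 CPM against 133, 156 and 150 CPM and was called higher (log2 fold change 0.81 ± 0.10 SE, edgeR adjusted p = 0.00315). The gene itself supplied 398 of these counts, so this value is one of sequence shared with Gm28661 and Gm13341.

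**Figure D4:**
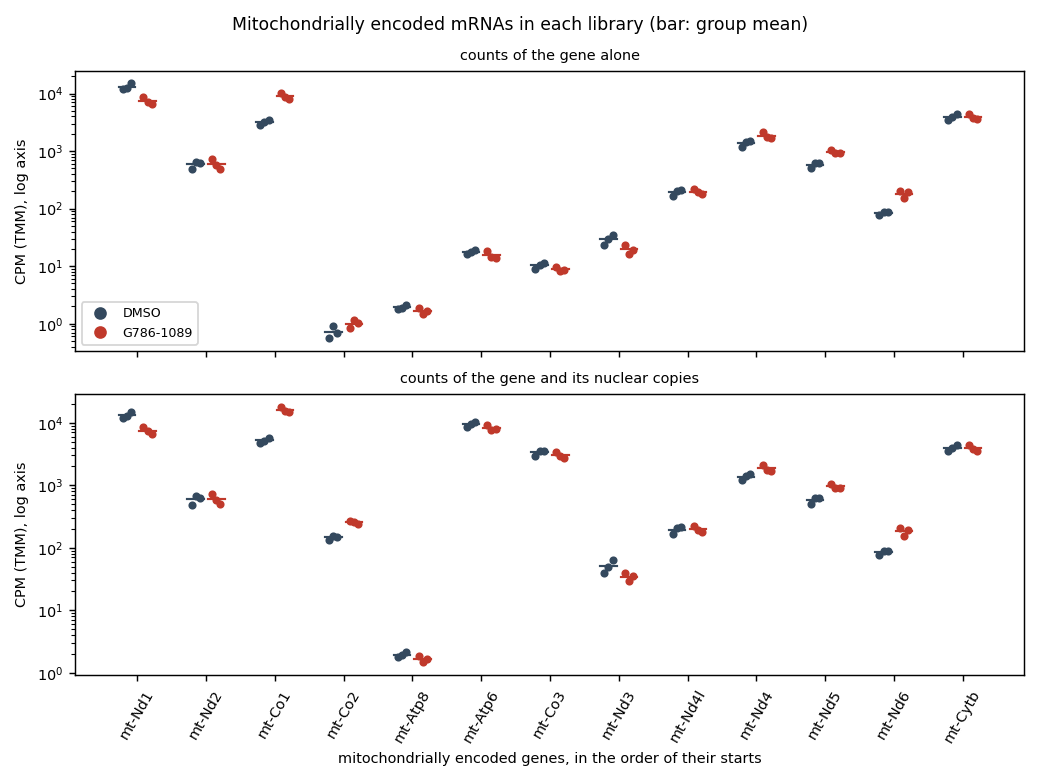
CPM of the 13 mitochondrially encoded genes in each library on a log axis, in the order of their starts on the chromosome; dark points are DMSO and red points G786-1089 libraries, and bars are group means. The upper panel counts the gene alone and the lower adds its annotated nuclear copies: mt-Co1, mt-Nd5 and mt-Nd6 lie higher and mt-Nd1 lower with G786-1089 in both panels, and mt-Co2 separates in the lower panel, from about 1 to over 100 CPM.

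As a share of all counts, the 13 genes took 2.93%, 2.47% and 2.38% of the G786-1089 libraries and 1.94%, 2.13% and 2.39% of the DMSO libraries. The means of 2.59% ± 0.298 and 2.15% ± 0.228 (SD, n = 3 each) differed by 0.436 percentage points, and the groups overlapped (two-sided exact permutation test, p = 0.2). With 3 against 3 libraries the smallest p possible is 0.1. With the copies included the shares were 4.57% ± 0.484 and 3.55% ± 0.343 and no longer overlapped (exact p = 0.1), and the same p was found for the mitochondrial rRNA genes, at 0.589% and 0.353%. The 98 nuclear genes took 5.93% ± 0.00392 with G786-1089 and 6.9% ± 0.0715 with DMSO (SD, n = 3 each), given as a description only. These shares depend on all other RNA in the library.

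Genes that serve the chain without being part of it did not share 1 direction, and the counts of each list below stand beside the 7.8% lower and 6.98% higher of all tested genes. Ppargc1a, the coactivator PGC-1 alpha that drives mitochondrial biogenesis, had 301, 301 and 253 CPM with G786-1089 and 85.0, 73.4 and 65.1 CPM with DMSO, all treated libraries far above the controls (log2 fold change 1.93 ± 0.14 SE, edgeR adjusted p = 0.000436). Among 9 regulators of biogenesis tested, Esrra, a nuclear receptor that works with Ppargc1a, was also higher (log2 fold change 1.81, edgeR adjusted p = 0.0453) and Nrf1, the factor named for its sites at respiratory genes, lower (-0.63, edgeR adjusted p = 0.0407); both calls were lost in 5 of the 6 fits without 1 library. The promoter letters of that factor were among the motifs counted above. Of 24 genes for replication, transcription and RNA handling in mitochondria, 6 were higher (median over the list 0.71), and 3 of them with offsets for gene length. They included Mtpap, the mitochondrial poly(A) polymerase (1.25, edgeR adjusted p = 0.00851), Polg, the DNA polymerase (0.92, edgeR adjusted p = 0.0174), Mterf4 (0.82, edgeR adjusted p = 0.0192) and Lrpprc, which holds mitochondrial mRNAs stable (0.70, edgeR adjusted p = 0.0379). Lonp1, a protease of the matrix, rose from 73.3, 77.4 and 79.5 CPM to 193, 198 and 193 CPM.

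Assembly factors of complex IV split in both directions, with 4 higher and 3 lower of 21. Cox10, which takes part in making haem A, and Cox11, which delivers copper, rose by log2 fold changes of 0.94 and 1.38 (edgeR adjusted p = 0.002 and 0.00946). Coa3, which binds the newly made product of mt-Co1, fell by 0.83 (edgeR adjusted p = 0.000369). For complex III, Uqcc1 had a log2 fold change of 0.71 and its partner Uqcc2 of -0.89, both called (edgeR adjusted p = 0.00263 and 0.00934). For complex V, Atpif1, the inhibitor of ATP hydrolysis, fell by 0.83 and Atpaf2, a chaperone of the F1 head, was higher by 1.09 (edgeR adjusted p = 0.00172 and 0.0463). Sdhaf4, of complex II, fell by 0.76 on the log2 scale, a call that length offsets ended. Feeding the chain, 3 of 13 genes of the citric acid cycle were lower and 1 higher. Mdh2 fell by 0.53 and Ogdh by 0.57, while Idh3b rose by 0.39. Of 18 genes for ubiquinone and other electron entry 2 were lower, Etfb (log2 fold change -1.15) and Coq7 (-0.81), and 1 higher, Pdss1 (0.73), shares of 11.1% and 5.56% that lie near those of all tested genes. Among 7 carriers of the mitochondrial membranes, Slc25a5 and Slc25a4, which exchange ADP and ATP, fell by 0.41 and 0.22 and Vdac1 rose by 0.39. The calls of Lrpprc, Sdhaf4, Idh3b and Pdss1 were lost in each of the 6 fits without 1 library, and those of Atpaf2 and Slc25a4 held in 1 of the 6. The replicate block ended the calls of Esrra, Nrf1, Mterf4, Lrpprc, Sdhaf4, Atpaf2, Ogdh, Idh3b, Pdss1, Slc25a5, Slc25a4 and Vdac1 among the genes named from these lists. Scaling by library size alone ended those of Nrf1, Sdhaf4, Ogdh, Slc25a5 and Slc25a4, and length offsets those of Polg, Lrpprc and Slc25a5.

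Some properties of the nuclear genes bear on how their values can be read. They are short: the median length was 1034 bases against 2678 for all tested genes, as given by the ratio of count to FPKM. The 2836 tested genes no longer than that median had a median of -0.24 on the log2 scale, and 8.57% of them were lower and 2.72% higher. With offsets for gene length in the fit, 48 of the 92 nuclear genes were lower and 5 higher, with a median of -0.39 where all tested genes had -0.04, and 8.35% of all tested genes were lower and 5.33% higher. Across the 92 genes the fold change had a Spearman correlation of 0.199 with length and -0.242 with mean FPKM, and 0.278 over 91 genes with the number of exons, a description over genes from the same libraries. The shorter 46 genes had 33 lower and the longer 46 had 26 lower. Leaving out 33 genes with near copies holding at least 5% as many counts, or with at least 5% of exon bases overlapping other genes, left 39 of 59 lower with a median of -0.51. The call and its direction were kept by 40 of the 67 called genes under RLE factors, library size only, DESeq2, offsets for gene length or GC content and each library left out, and by 31 when every other fit was required as well, the replicate block with length offsets included. The 31 included Ndufs6, Ndufc1, Ndufb7, Ndufb10, Sdhb, Uqcrh, Uqcrfs1, Cycs, Ndufa4, Cox5a, Cox6b1, Atp5k, Atp5g3, Atp5j and Atp5b among the lower genes, and Ndufaf6, Cox7a2l, mt-Co1, mt-Nd5 and mt-Nd6, all 5 of the higher ones among them.

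**Figure D5:**
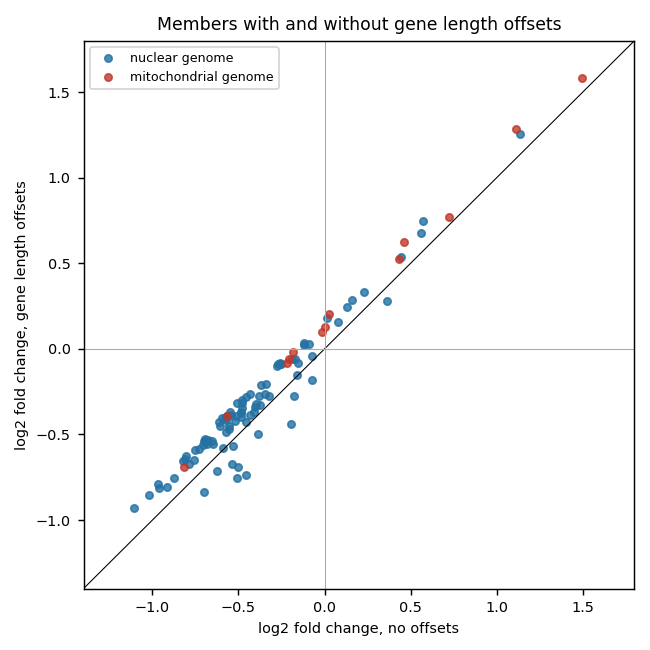
Log2 fold change of each tested gene without offsets (horizontal axis) and with offsets for gene length (vertical axis); blue points are nuclear and red points mitochondrially encoded genes, the diagonal marks equal values, and Cox7b2 and Cox6a2 lie outside the axes. Most nuclear genes below 0 move toward 0 and stay below it, and the median of the nuclear genes changes from -0.48 to -0.39.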

How the data were processed

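Per the labels and the study's methods, RNA of alphaTC1 cells was amplified with Smart-seq2, made into libraries with Nextera XT, which does not mark strand, and sequenced in pairs on a NovaSeq. The authors aligned reads with STAR 2.7.9a to GRCm38 and counted them per gene irrespective of strand, and the deposited counts are whole numbers without normalization. The deposited FPKM values are scaled per kilobase and between libraries; how the authors made them is not given in the sources used here. The submitters' processing notes also name DESeq2 1.34.0, Picard 2.19.2 and R 4.1.3.

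Counts were tested with edgeR 4.0.16 in R 4.3.3: genes were filtered with filterByExpr (counts of at least 10, total of at least 15) and scaled with TMM factors, followed by glmQLFit and glmQLFTest with group as the only term, and Benjamini-Hochberg adjustment over all 15082 tested genes; a gene was called at an adjusted p under 0.05. The standard error is the absolute log2 fold change over the root of the F statistic. The members and gene lists were chosen with earlier results of these data known. Named with full values were the 13 mitochondrial genes, in each nuclear group up to 4 genes with the smallest p and up to 2 with the highest mean CPM, and all isoform pairs; every called member was named, and from each other list up to 3 called genes with the smallest p. Beyond this rule Lrpprc, Ndufs1, Ndufs3, Ndufs7, Uqcrc2 and Cox5b-ps were named after their values were seen. Some genes that the rule selects are not reported here. The alternatives were DESeq2 1.42.0, RLE factors, library size only, normalization without mitochondrial genes, other count filters, offsets for gene length or GC content, limma-trend (limma 3.58.1) on log2(FPKM + 1) or log2(FPKM + 0.1), a block by column letter, and each library left out in turn; adding copies to mitochondrial genes was chosen after the data were seen. Near copies, of at least 100 bases at 95% identity, were found with blastn 2.17.0. Genome coordinates are those of GRCm38. The scripts were tested on simulated data. At 3 libraries per group the exact permutation test cannot go below 0.1. Other values and the plots came from pandas 2.3.3, scipy 1.17.1 and matplotlib 3.10.9 under Python 3.11.15.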

Additional observations from a re-analysis of the deposited data

How the results depend on the processing

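With 67 genes called, 60 lower and 7 higher, the threshold mattered most: an adjusted p of up to 0.1 with a change of 1 or more on the log2 scale in either direction left 6, of which 2 were lower and 4 higher. Library size only gave 38 lower and 11 higher, and DESeq2 64 lower and 11 higher. Leaving out each library in turn gave 47 to 55 lower and 5 to 6 higher, 52 to 60 in all. No called gene changed sign under any alternative run, and of the genes not called 13 changed sign with library size only, 4 with gene length offsets and 3 with GC content offsets. The summed level of each complex over DMSO moved by more than its spread with FPKM for complex I (0.706), II (0.714) and V (0.676), and with library size only for complex I (0.842), II (0.913), III (0.853), IV (0.969) and V (0.822). Adding the copies moved the difference in the mitochondrial share from 0.436 to 1.02 percentage points. The causes were not tested. Few counts limit the values of Cox7b2, Cox6a2, mt-Co2 and mt-Atp8. For mt-Co2 the copies held 99.6% of the counts of the gene and its copies, so its few counts cannot be put down to depth.

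The study states that samples of a replicate were handled together, but the columns carry letters that the labels do not tie to replicate numbers, and deviations of same-lettered libraries correlated at only 0.015, 0.003 and 0.025. Whether the letters mark a pairing is thus not settled. A replicate block by letter gave 45 lower and 5 higher, 50 in all, and together with gene length offsets 28 lower and 6 higher, 34 in all.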
